A study of Saccharomyces cerevisiae with 6 samples.

Results

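The Ty Gag-Pol genes are the long reading frames of the Ty retrotransposons of budding yeast, and they were followed here in cells that lack Snf2, the ATPase of the chromatin remodeler Swi-Snf, and in cells that have it. The 41 genes were taken by identifier from the 7127 features of a count table of poly(A) RNA. They comprise 30 genes of Ty1, 7 of Ty2, 2 of Ty3 and 2 of Ty4. The family came from the element that RefSeq annotates around each gene, except for YLR035C-A, which lies in no annotated element and was placed with Ty1 by its closest copy, YER160C.

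The libraries were made from 3 samples of snf2Δ and 3 of wild type, each grown in YPD, a rich medium, at 30 °C to log phase without rapamycin. Both strains are derived from HHY221, a W303 strain of mating type a used for anchor-away depletion, which carries TOR1-1, a deletion of FPR1 marked with LEU2 and RPL13A fused to FKBP12, and snf2Δ in addition carries the whole-gene replacement snf2Δ::natMX6. Each genotype is therefore 1 strain, and W303 need not hold the same Ty insertions as the S288C reference against which reads were counted. Nothing in the labels says whether the samples of a strain were separate cultures, so the p-values speak of the spread among these libraries, which may be technical.

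Ty elements are flanked by long terminal repeats (LTRs) and move through an RNA copy: the full-length RNA is transcribed from the 5′ LTR, packed into particles built of Gag, and copied into DNA by the reverse transcriptase that Pol encodes, which integrase then inserts in the genome. Gag and Pol are read from the same RNA, and ribosomes make the Gag-Pol protein only when they slip by 1 base into the next frame near the end of Gag. Ty1 transcription is known to need Swi-Snf and other chromatin factors as well as activators such as Ste12 and Tec1, whereas Ty3 is known as a pheromone-induced element.

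The slip site is shown because it bears on what a Gag-Pol count is: both frames lie in 1 RNA, so these counts follow RNA and not the rate of the slip. Whether they stem from the full-length transcript alone was not tested. RefSeq (R64) annotated a Gag and a Pol segment that are joined by a frame change for 28 of 30 Ty1 genes, all 7 Ty2 genes and both genes of each of Ty3 and Ty4. The 2 Ty1 genes with a single segment were YAR009C, annotated as truncated, and YLR035C-A. The 7-base slip site was found at the join in each of the genes with 2 segments. It is given in capitals within 30 bases of the sense strand, with 1 gene for each family.
YNL054W-B (Ty1, chrXIV:520746-520775, plus strand): cacgaccttcatCTTAGGCcagaaacttac
YCL019W (Ty2, chrIII:86380-86409, plus strand): aacgaacttagtCTTAGGCcagcaacagaa
YIL082W-A (Ty3, chrIX:206475-206504, plus strand): agagcacgtaagGCGAGTTctaaccgatct
YJL113W (Ty4, chrX:198987-199016, plus strand): ccaaatagggaaCTTAGGCctgactcgacc
The slip site of Ty1, Ty2 and Ty4 had the same letters and that of Ty3 had others. The letters around it took 3 forms among the 28 Ty1 genes and 1 form in each of the other families.

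The Ty genes also shared a position in the genome. The element, or for YLR035C-A the gene itself, lay within 1000 bases of a tRNA gene for 32 of 41 genes (78.0%), compared with 6.36% of 5909 other protein-coding genes, and the median distance was 190 bases for the Ty genes. Both Ty3 elements lay at 16 to 18 bases from a tRNA gene.

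The libraries held 4134546 to 4667287 counts in snf2Δ and 4627141 to 6708036 in wild type. SNF2 itself had 6, 9 and 7 counts in the snf2Δ libraries and 363, 298 and 365 in the wild-type libraries, which fits the labels. The first principal component held 76.5% of the variance and separated the genotypes, and the second, with 9.98%, set wild-type replicate 3 apart from the other libraries. Markers of a cells were present in both strains. The α-factor genes MF(ALPHA)1 and MF(ALPHA)2 were at or below 0.691 CPM (counts scaled to 1000000 per library, after TMM scaling) in all libraries. The α-cell marker SAG1 was higher, with 46.98, 49.26 and 48.73 CPM in snf2Δ and 39.25, 38.78 and 49.23 CPM in wild type. Of 7 a-cell markers, MFA1 and MFA2 fell and ASG7 rose in snf2Δ, and neither of the 2 α-cell markers with enough counts (STE3 and SAG1) was called. For these and the haploid markers below, the shares over all features tested are 17.9% that fell and 16.7% that rose. The calls of MFA2 and ASG7 were each lost without 1 of 3 libraries (MFA2 without snf2Δ replicate 1 or 3 or wild-type replicate 3, ASG7 without snf2Δ replicate 2 or wild-type replicate 1 or 2). The summed level of the a-cell markers was 1518 to 1710 CPM in snf2Δ and 1470 to 2416 CPM in wild type. That of the α-cell markers was 50.4 to 52.3 CPM in snf2Δ and 39.8 to 51.3 CPM in wild type, mostly from SAG1. Of 6 haploid markers, STE4 and RME1 fell and STE18 rose, and the summed level was 424 to 442 CPM in snf2Δ and 498 to 534 CPM in wild type. The part of these differences in the Ty results was not tested.

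Because copies of a family share most of their sequence, the families were first compared as sums. A sum adds the counts assigned to single copies. Whether reads that match several copies were counted is not known, so a sum may hold only part of the RNA of a family. RNA assigned to Ty1 was lower in snf2Δ, whereas that of Ty2, Ty3 and Ty4 overlapped between the genotypes. The summed Ty1 level was 102, 96.5 and 91.2 CPM in the snf2Δ libraries, against 253, 228 and 271 CPM in the wild-type libraries. No snf2Δ library came near a wild-type library, and the means were 96.5 ± 5.27 CPM in snf2Δ and 251 ± 21.6 CPM in wild type (SD, n = 3 each), a 2.60-fold lower level with a log2 difference of -1.38 ± 0.09 (SE). In RNA from whole cultures, fewer cells with Ty1 RNA and less Ty1 RNA per cell cannot be told apart. Sums over members were given no p-value, since the list of identifiers was drawn up with earlier results of these data known.

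The Ty2 sum was 56.4, 39.8 and 39.8 CPM in snf2Δ, against 76.4, 53.5 and 46.0 CPM in wild type. The genotypes overlapped, since replicate 1 was the highest library of both, and the log2 difference was -0.36 ± 0.27 (SE). Ty2 is the closest relative of Ty1. The 2 Ty3 genes summed to 53.0, 56.5 and 58.7 CPM in snf2Δ and to 57.6, 54.9 and 47.6 CPM in wild type, with a log2 difference of 0.07 ± 0.09 (SE). Ty4 came to 7.83, 6.35 and 6.71 CPM in snf2Δ and to 6.61, 10.4 and 4.49 CPM in wild type, so both of the last families overlapped between the genotypes. For all 41 genes together the sum was 205 ± 12.3 CPM in snf2Δ and 370.3 ± 23.4 CPM in wild type (SD, n = 3 each), with no overlap, and most of that difference lay in Ty1.

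**Figure D1:**
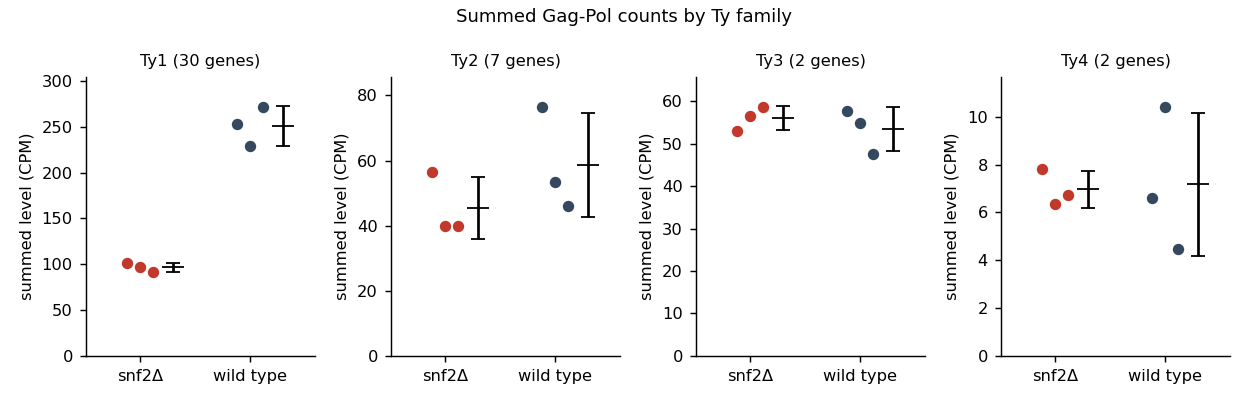
Summed level of the Gag-Pol genes of each Ty family in CPM (y axis, from 0), for snf2Δ (red) and wild type (dark) libraries. Points are single libraries and the black mark with bars is the mean with 1 SD (n = 3). The Ty1 points lie at 91.2 to 102 CPM in snf2Δ and at 228 to 271 CPM in wild type, and in the other families the points of the genotypes overlap.

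Ratios between families within a library do not depend on how libraries were scaled. The ratio of Ty1 to Ty2 counts was 1.80, 2.42 and 2.29 in snf2Δ and 3.31, 4.27 and 5.90 in wild type. That of Ty1 to Ty3 was 1.92, 1.71 and 1.56 in snf2Δ and 4.39, 4.16 and 5.70 in wild type. For both ratios every snf2Δ library was below every wild-type library. The ratio of Ty2 to Ty3 was 1.07, 0.705 and 0.678 in snf2Δ and 1.33, 0.974 and 0.966 in wild type, and here the genotypes overlapped.

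**Figure D2:**
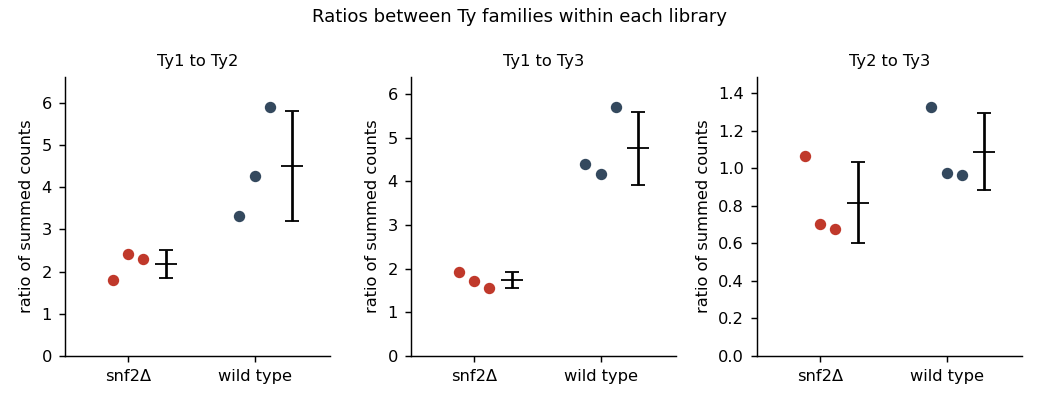
Ratio of summed counts between Ty families within each library (y axis, no unit, from 0) for snf2Δ (red) and wild type (dark). Points are libraries, and the black mark with bars is the mean with 1 SD (n = 3). Ty1 to Ty2 averages 2.17 in snf2Δ and 4.49 in wild type, and Ty1 to Ty3 averages 1.73 in snf2Δ and 4.75 in wild type, both without overlap, whereas Ty2 to Ty3 overlaps.

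Single genes were then tested with edgeR's quasi-likelihood test, with p-values adjusted by Benjamini-Hochberg over all features tested, and a gene was said to rise or fall where the adjusted p was under 0.05. Of 5641 features tested other than SNF2, 17.9% fell and 16.7% rose in snf2Δ (1010 and 942), or 34.6% in either direction. With upper quartile scaling 804 fell and 1194 rose. Only 21 of the 41 Ty genes had enough counts for a test (filterByExpr, a cutoff of 2.15 CPM in at least 3 libraries), 11 of those fell and none rose. At an unadjusted p under 0.05, 13 were lower and 0 higher in edgeR, and DESeq2 called 10 lower and 0 higher. Of the 21, 5 were under the cutoff in at least 1 snf2Δ library and passed with the help of wild type, which favours genes that are lower in snf2Δ, and 3 of those fell. Among the 16 that were over the cutoff in every snf2Δ library as well, 8 fell. The median log2 fold change of the tested Ty genes was -1.04, compared with -0.02 over all features tested. By family 10 of 13 Ty1 genes fell, 1 of 5 Ty2 genes did, and neither of the 2 Ty3 genes nor the Ty4 gene with enough counts did, also at an unadjusted p under 0.05 or in DESeq2. Among the Ty1 genes that were over the cutoff in every snf2Δ library, 7 of 8 fell. All snf2Δ libraries were below all wild-type libraries in 13 of the 21, compared with 24.1% of all features tested, and above them in 0 of the 21, compared with 22.4%. The 13 and the median above include genes that passed with the help of wild type. Of those 5 genes, YGR027W-B, YNL284C-B, YOL103W-B and YPR158W-B were lower in snf2Δ without overlap, and YER160C overlapped. Without 1 library at a time, 9 to 11 Ty genes were called.

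**Figure D3:**
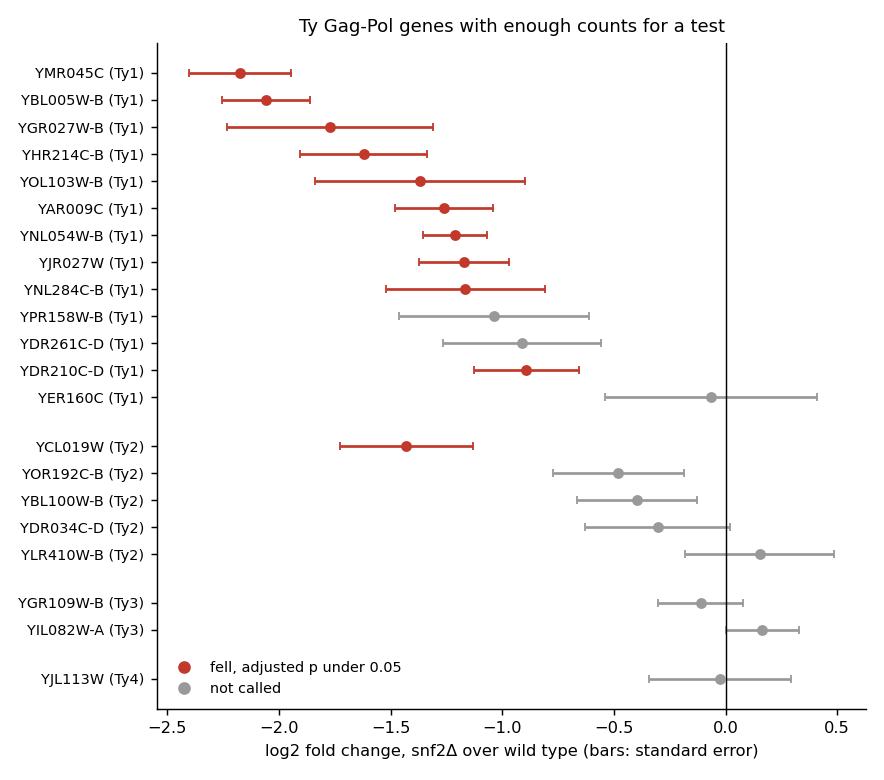
Log2 fold change of each Ty gene with enough counts, snf2Δ over wild type (x axis, bars are the standard error of the fit over 3 libraries each), ordered by family from Ty1 at the top to Ty4. Red genes fell with an adjusted p under 0.05 and grey genes were not called. The 10 red Ty1 genes lie between -2.17 and -0.89, and the Ty3 and Ty4 genes lie near 0.

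Among the Ty1 genes, YNL054W-B (chrXIV:519456-524706, plus strand) took 37.3% of all Ty1 counts in snf2Δ and 33.2% in wild type. It had 164, 161 and 141 counts in the snf2Δ libraries and 425, 359 and 556 in the wild-type libraries. The groups were far apart, with means of 36.0 ± 1.51 CPM in snf2Δ and 83.4 ± 8.80 CPM in wild type (SD, n = 3 each) and a log2 fold change of -1.21 ± 0.14 (edgeR adjusted p = 8.2e-06). Without this gene the Ty1 sum was 60.5 ± 3.98 CPM in snf2Δ and 168 ± 13.7 CPM in wild type (SD, n = 3 each), so the lower Ty1 sum did not rest on it.

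The biggest falls among the tested Ty genes were those of YMR045C (chrXIII:357359-362627, minus strand) and YBL005W-B (chrII:221330-226598, plus strand). YMR045C had 28, 25 and 20 counts in snf2Δ and 123, 108 and 181 in wild type, and its log2 fold change was -2.17 ± 0.23 (edgeR adjusted p = 2.2e-06). YBL005W-B had 48, 41 and 37 counts in snf2Δ and 169, 203 and 284 in wild type, with a log2 fold change of -2.06 ± 0.20 (edgeR adjusted p = 7.0e-07). They were the 2 Ty genes that fell by more than 2 on the log2 scale, as 1.76% of all features tested did, and none rose by as much, as 1.06% of all features did. These 2 copies are a pair by sequence too: they were 99.3% identical over the first 1300 bases of the element's reading frame, the Gag part, whereas each shared 86.1% of these bases with YNL054W-B. Together they summed to 15.4 ± 1.85 CPM in snf2Δ and 66.1 ± 7.48 CPM in wild type (SD, n = 3 each), which is 0.233 of the wild-type level, and the other 28 Ty1 genes summed to 0.439 of theirs. The count of the pair over that of the other Ty1 genes was 0.208, 0.176 and 0.184 in snf2Δ and 0.313, 0.385 and 0.379 in wild type. The pair was chosen for its values, so that difference is a description.

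Among the other Ty1 genes that fell, YJR027W, YAR009C, YHR214C-B and YDR210C-D were the best counted. YJR027W had 42, 46 and 40 counts in snf2Δ and 110, 102 and 146 in wild type (log2 fold change -1.17 ± 0.20, edgeR adjusted p = 0.00031). YAR009C, the truncated gene on chromosome I, had 34, 43 and 29 counts in snf2Δ and 95, 88 and 132 in wild type (log2 fold change -1.26 ± 0.22, edgeR adjusted p = 0.00035). In both, every snf2Δ library was far below every wild-type library. YHR214C-B had 21, 23 and 11 counts in snf2Δ and 68, 69 and 70 in wild type (log2 fold change -1.62 ± 0.28). YDR210C-D had 31 counts in each snf2Δ library and 71, 58 and 85 in wild type, the smallest fall of a Ty1 gene (log2 fold change -0.89 ± 0.24, edgeR adjusted p = 0.0079).

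The other 3 Ty1 genes with a fall were sparsely counted. YGR027W-B had 3, 6 and 5 counts in snf2Δ and 16, 13 and 32 in wild type, YNL284C-B had 8, 14 and 10 in snf2Δ and 28, 20 and 42 in wild type, and YOL103W-B had 4, 5 and 3 in snf2Δ and 11, 12 and 16 in wild type. The groups did not overlap in any of them. The call of YOL103W-B was lost without any 1 of the 6 libraries (adjusted p 0.058 to 0.084), and that of YNL284C-B was lost without snf2Δ replicate 1, snf2Δ replicate 3 or wild-type replicate 3 (adjusted p 0.051 to 0.072). Of the tested Ty1 genes, 3 were not called: YDR261C-D (log2 fold change -0.91 ± 0.35), YPR158W-B (-1.04 ± 0.43) and YER160C (-0.06 ± 0.48). YER160C had 10, 4 and 10 counts in snf2Δ and 9, 12 and 10 in wild type, and it was the tested Ty1 gene with the value nearest to 0.

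The 17 Ty1 genes without enough counts were also counted as a sum. They came to 3.41 ± 0.888 CPM in snf2Δ and 8.07 ± 1.37 CPM in wild type (SD, n = 3 each), without overlap. Each held at most 12 counts in a library. YML045W (Ty1) and YHL009W-B (Ty4) had 0 counts in all 6 libraries, which allows up to 0.481 to 0.746 CPM per library at 3 counts, for counting error only. That range holds for counts assigned to these copies and sets no limit on their RNA, since reads that match several copies may not have been counted.

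The 7 Ty2 genes differed among themselves. YCL019W (chrIII:85102-90415, plus strand), the only Ty2 gene that fell, had 26, 28 and 10 counts in snf2Δ and 64, 62 and 87 in wild type, with a log2 fold change of -1.43 ± 0.30 (edgeR adjusted p = 0.0015). The gene with the most Ty2 counts, YLR410W-B, had 107, 70 and 76 in snf2Δ and 148, 65 and 60 in wild type. Its wild-type libraries spread over 30.6, 13.3 and 9.62 CPM, wider than the difference between the genotypes (log2 fold change 0.15 ± 0.33), and without wild-type replicate 1 it was called higher in snf2Δ (log2 fold change 0.78, adjusted p = 0.045). Without YLR410W-B the Ty2 sum was 25.7 ± 5.55 CPM in snf2Δ and 40.8 ± 4.76 CPM in wild type (SD, n = 3 each), which did not overlap, so this 1 gene decided whether the Ty2 sums overlapped. Of the others, YBL100W-B (log2 fold change -0.40 ± 0.27), YDR034C-D (-0.30 ± 0.32) and YOR192C-B (-0.48 ± 0.29) were not called. YFL002W-A and YGR161W-B had at most 3 counts in a library.

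The Ty3 genes gave the best-resolved comparison without a call. YIL082W-A (chrIX:205635-210132, plus strand) had 148, 180 and 169 counts in snf2Δ and 180, 179 and 184 in wild type, and the means were 38.5 ± 4.04 CPM in snf2Δ and 34.4 ± 4.26 CPM in wild type (SD, n = 3 each). Its log2 fold change was 0.16 ± 0.16 (edgeR adjusted p = 0.47). YGR109W-B (chrVII:707610-712254, plus strand) had 82, 78 and 67 counts in snf2Δ and 99, 90 and 113 in wild type, with a log2 fold change of -0.11 ± 0.19 (edgeR adjusted p = 0.68). Neither passed the test, and the CPM of the genotypes overlapped in both. The only counted Ty4 gene, YJL113W (chrX:198678-203325, plus strand), had 34, 29 and 27 counts in snf2Δ and 32, 51 and 28 in wild type (log2 fold change -0.02 ± 0.32).

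A count of 1 Ty copy is only as good as the sequence that sets the copy apart. For each gene, all 75-base windows, the read length of the study, that lie outside annotated overlapping genes were looked up on both strands of the R64 genome. The median share of windows found nowhere else was 1.94% for Ty1, 3.49% for Ty2 and 46.9% for Ty3. The 2 Ty4 genes had 36.1% (YJL113W) and 1.73% (YHL009W-B). YNL054W-B had 15.9%, the highest of Ty1, and YBL100W-B had 21.3%, the highest of Ty2. Of all members, 12 had no such window, and their mean over the 6 libraries was at most 2.39 CPM. Among them was YGR027W-B, which fell, so its call need not be that of a single copy. YOL103W-B, which also fell, had 0.80%. Across the 37 Ty1 and Ty2 genes the mean level and the number of unique windows went together (Spearman's rho 0.62, Pearson's r 0.62), as a description of genes that share libraries and sequence. How reads with several matches were counted is stated neither in the labels nor in the study's methods, and the part of unique sequence in the level of a single copy was not tested. Genotypes were compared within a gene. The share of unique windows was read from the S288C reference and not from the 2 W303 strains, whose Ty copies may differ from it.

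**Figure D4:**
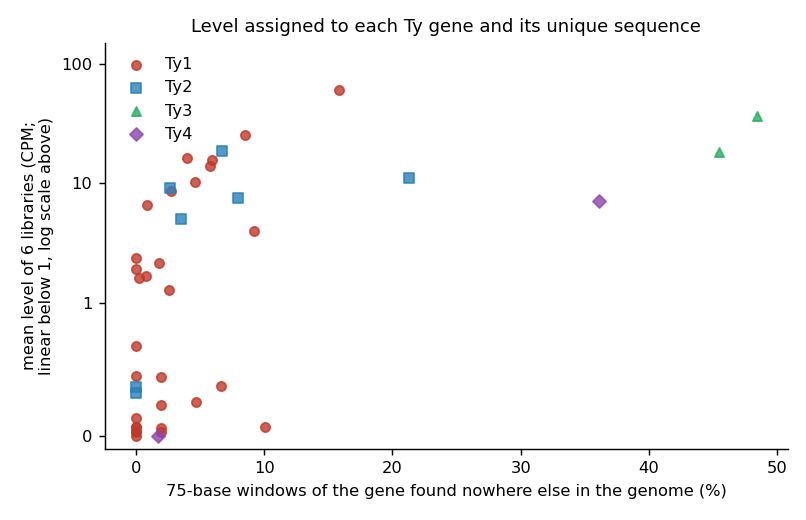
Mean level of each of the 41 Ty genes over the 6 libraries (y axis, CPM, linear below 1 and log scale above) against the share of its 75-base windows found nowhere else in the genome (x axis, percent). Each point is 1 gene and shape and colour give the family. The genes with 0% of unique windows lie at or below 2.39 CPM, and the 2 Ty3 genes lie at 45.5% and 48.4%.

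A stretch of 60 bases of the Pol part shows letters by which copies differ. The copies are aligned without gaps, letters that differ from YLR157C-B are in capitals, and the stretch was chosen to hold differences.
YNL054W-B (Ty1, chrXIV:523851-523910, plus strand): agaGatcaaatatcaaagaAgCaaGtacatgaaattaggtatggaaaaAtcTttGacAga
YMR045C (Ty1, chrXIII:358155-358214, minus strand): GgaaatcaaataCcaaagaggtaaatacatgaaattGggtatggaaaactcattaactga
YBL005W-B (Ty1, chrII:225743-225802, plus strand): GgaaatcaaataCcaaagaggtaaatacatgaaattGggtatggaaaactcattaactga
YLR157C-B (Ty1, chrXII:477129-477188, minus strand): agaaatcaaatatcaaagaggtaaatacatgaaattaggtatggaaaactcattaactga
YCL019W (Ty2, chrIII:89560-89619, plus strand): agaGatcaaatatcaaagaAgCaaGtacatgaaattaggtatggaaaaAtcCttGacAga
YMR045C and YBL005W-B have the same 60 letters, which differ from YLR157C-B at 3 positions. YNL054W-B differs from it at 8 positions and so does the Ty2 gene YCL019W. Over the last 3400 bases of the gene, which lie in the Pol part, YNL054W-B was 94.9% identical to YLR157C-B and 93.2% to YMR045C.

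The Gag reading frames, which lie at the start of the elements, are separate features of the table. Of 40 such Gag-only features, 38 had 0 counts in all 6 libraries, none had enough counts for a test, and their summed level was 0.249 to 0.691 CPM in snf2Δ and 0.204 to 1.24 CPM in wild type. The 2 with counts were YAR010C, with 1 count in each snf2Δ library and 6, 1 and 4 in wild type, and YJL114W, with 2, 1 and 0 counts in snf2Δ and 0 in wild type. RefSeq annotates a feature that overlaps the Gag-Pol gene for all members but YAR009C, YLR035C-A, YIL082W-A and YJL113W, so for these 4 the windows above cover the whole gene. Whether reads over the bases that a Gag-only and a Gag-Pol feature share were counted in the Gag-Pol feature was not tested, so the Ty values above may stem from the Pol part alone.

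The 5′ LTR holds the start of the full-length RNA, so its sequence was compared with the fold changes of the genes behind it. The first 250 bases of the 5′ LTR of 40 elements were searched on both strands for 5 motifs, no 2 of which shared letters in the LTRs. The Ste12 motif (TGAAACA), bound by the pheromone-response activator, was found in 8 of 29 Ty1 LTRs, 0 of 7 Ty2 LTRs, both Ty3 LTRs and neither Ty4 LTR, compared with 5.88% of 5921 promoters, taken as the 250 bases before the start of another gene. A first Tec1 motif (CATTCC), bound by the partner of Ste12 in filamentation, was found in 20 of 29 Ty1 LTRs, 0 of 7 Ty2 LTRs and both LTRs of Ty3 and of Ty4, compared with 7.57% of promoters. The TATA box (TATAAA), where transcription factors assemble, was in every Ty1, Ty2 and Ty3 LTR and in neither Ty4 LTR, and in 42.7% of promoters. In the Ty1 LTRs that hold the Ste12 motif, it runs straight into the TATA box. A second Tec1 motif (CATTCT, 14.5% of promoters) was found in none of the LTR stretches searched. The same was so of the core of the Gcn4 motif (TGACTC, 6.33% of promoters). A match is a description of letters and not a bound site. Bases beyond these 250 were not searched, so an element without a match here may hold one further on.

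The first 190 bases of the 5′ LTR are given for 1 gene of each class of Ty1 and for a Ty2 gene, with matches in capitals. The Tec1 letters appear as GGAATG, their reverse complement.
YMR045C (Ty1, chrXIII:362729-362918, minus strand): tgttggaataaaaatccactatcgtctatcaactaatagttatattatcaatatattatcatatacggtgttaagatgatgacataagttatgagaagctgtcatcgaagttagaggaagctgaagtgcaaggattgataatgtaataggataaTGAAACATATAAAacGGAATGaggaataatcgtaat
YJR027W (Ty1, chrX:472463-472652, plus strand): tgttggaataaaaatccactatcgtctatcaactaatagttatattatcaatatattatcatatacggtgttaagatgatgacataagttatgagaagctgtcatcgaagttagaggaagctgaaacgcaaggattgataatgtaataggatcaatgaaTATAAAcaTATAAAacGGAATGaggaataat
YNL054W-B (Ty1, chrXIV:519163-519352, plus strand): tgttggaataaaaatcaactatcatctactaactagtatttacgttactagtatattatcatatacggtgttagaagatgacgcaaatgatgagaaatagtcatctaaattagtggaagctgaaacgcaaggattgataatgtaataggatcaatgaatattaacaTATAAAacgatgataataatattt
YCL019W (Ty2, chrIII:84811-85000, plus strand): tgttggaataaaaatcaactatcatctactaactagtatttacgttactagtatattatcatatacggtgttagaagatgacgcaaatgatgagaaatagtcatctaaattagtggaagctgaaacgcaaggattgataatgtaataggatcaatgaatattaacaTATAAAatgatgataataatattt
YMR045C has both the Ste12 and the Tec1 letters, YJR027W has the Tec1 letters, and YNL054W-B and YCL019W have neither. In the 250 bases searched, of which 190 are shown, the TATA box was at 1 place in YMR045C. It was at 2 places in YJR027W, YNL054W-B and YCL019W. Over the first 250 bases YNL054W-B was 98.8% identical to the Ty2 gene YCL019W and 79.2% identical to the Ty1 gene YMR045C.

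The 8 Ty1 genes with both kinds of letters summed to 24.9, 23.6 and 20.1 CPM in snf2Δ and to 83.0, 83.9 and 95.6 CPM in wild type, a 3.82-fold lower level. The 12 with the Tec1 letters alone summed to 25.3, 25.0 and 24.6 CPM in snf2Δ and to 55.0, 51.8 and 59.5 CPM in wild type, which is 2.22-fold lower. The 9 with neither summed to 51.6, 47.7 and 46.2 CPM in snf2Δ and to 115, 91.8 and 116 CPM in wild type, also 2.22-fold lower. All 3 classes of Ty1 were without overlap between the genotypes. In the class with neither, YNL054W-B held 164, 161 and 141 of 224, 218 and 186 counts in snf2Δ. In wild type it held 425, 359 and 556 of 555, 450 and 724 counts, so that sum is mostly this gene. By single genes, 4 of 4 tested genes with both kinds of letters fell, 4 of 6 with the Tec1 letters alone and 2 of 3 with neither. Over all features tested, 17.9% fell. YNL284C-B in the first class and YGR027W-B, YOL103W-B, YPR158W-B and YER160C in the second passed the filter with the help of wild type. The class with both kinds holds the pair YMR045C and YBL005W-B, and its other tested genes, YHR214C-B and YNL284C-B, had log2 fold changes of -1.62 and -1.17. The pair held 76, 66 and 57 of the 108, 108 and 81 counts of that class in snf2Δ. In wild type the pair held 292, 311 and 465 of 402, 411 and 596 counts. The Ty3 LTRs also hold both kinds of letters, and the Ty3 sums overlapped between the genotypes. The classes were formed after the fold changes had been seen and were not tested against each other.

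**Figure D5:**
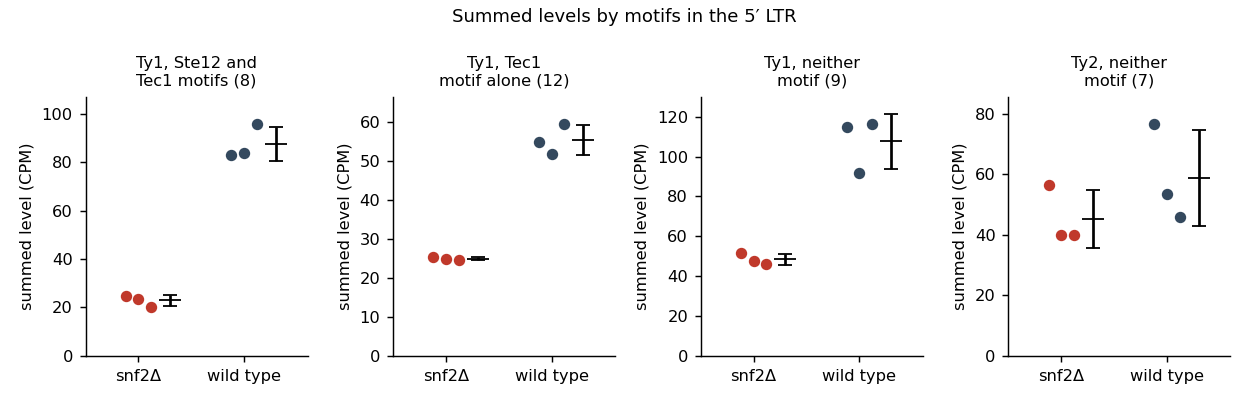
Summed level in CPM (y axis, from 0) of the Ty1 genes in 3 classes by the motif letters in their 5′ LTR, and of the Ty2 genes, for snf2Δ (red) and wild type (dark). Numbers in parentheses are genes, points are libraries, and the black mark with bars is the mean with 1 SD (n = 3). Means are 22.9 CPM in snf2Δ and 87.5 CPM in wild type for Ty1 genes with both motifs, and the classes with 1 or neither motif are each 2.22-fold lower in snf2Δ.

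The genes that act on Ty elements were counted in lists written from general knowledge. Of 16 activators and coactivators of Ty1 transcription, 5 fell and 1 rose, with a median log2 fold change of -0.33. At an unadjusted p under 0.05, 6 were lower and 1 higher, and DESeq2 called 3 lower and 1 higher. Upper quartile scaling and the GC and length offset also left 3 that fell, MCM1, GCR1 and TEC1, so the calls of SWI3 and SPT20 did not hold there. The 5 were MCM1 (log2 fold change -1.13 ± 0.15), which encodes a partner of Ste12, GCR1 (-0.97 ± 0.14), an activator of glycolytic genes, TEC1 (-0.92 ± 0.16), SWI3 (-0.42 ± 0.16), a Swi-Snf subunit, and SPT20 (-0.41 ± 0.15), a SAGA subunit. TEC1 had 44.4, 53.9 and 37.0 CPM in snf2Δ and 90.1, 91.4 and 75.4 CPM in wild type, so the groups were apart. GCN4, whose product switches on amino acid synthesis, rose (0.57 ± 0.15) with 2608, 2730 and 2554 CPM in snf2Δ and 1720, 1577 and 2021 CPM in wild type. That rise was lost without wild-type replicate 1 or 2 (adjusted p = 0.053 and 0.054). STE12 (-0.10 ± 0.15) and SPT3 (-0.34 ± 0.20) were not called, and SPT3, a SAGA subunit, was called lower without wild-type replicate 3 (log2 fold change -0.57, adjusted p = 0.0036). Leaving out 1 library at a time gave 3 to 9 called genes on this list, and 3 without wild-type replicate 1 or 2.

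Of 15 SPT, HIR and other chromatin genes known to restrain or shape Ty transcription, 7 fell and none rose, with 8 lower and 0 higher at an unadjusted p under 0.05 and 7 lower and 0 higher in DESeq2 (median log2 fold change -0.31). CYC8, which encodes a general corepressor, fell by 1.11 on the log2 scale (SE 0.17), the histone genes HTB1 and HTA1 by 0.96 (SE 0.14) and 0.92 (SE 0.17), and HIR2, a subunit of the histone regulator HIR, by 0.58 (SE 0.15), although its call was lost without wild-type replicate 1 (adjusted p = 0.056). The others were SPT2, SPT5 and SPT6. Leaving out 1 library gave 3 to 8 called genes, and the count was 4 without snf2Δ replicate 1, snf2Δ replicate 2 or wild-type replicate 2, and 3 when wild-type replicate 1 was left out. Of 15 genes of RNA decay and host factors that act after transcription, 3 fell and none rose, with 5 lower and 0 higher at an unadjusted p under 0.05 and 3 lower and 0 higher in DESeq2 (median log2 fold change -0.21). These were XRN1 (-0.53 ± 0.14), the cytoplasmic exonuclease, DHH1 (-0.67 ± 0.14), a helicase of decapping, and DCP2 (-0.51 ± 0.15), the decapping enzyme. The call of DCP2 was lost without snf2Δ replicate 1 or 2 or wild-type replicate 1 or 2 (adjusted p 0.061 to 0.092), and that of XRN1 without snf2Δ replicate 1 (adjusted p = 0.0505). The count of called genes was 1 without snf2Δ replicate 1 and 5 without wild-type replicate 3. The shares that fell over all features tested are the 17.9% given above, and no list was tested as a set.

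The pheromone-response genes were listed because Ty3 is known to share their control, and several rose, whereas neither Ty3 gene was called. Of 8 listed, 7 had enough counts, 4 rose, compared with 16.7% of all features tested, and SST2, which encodes a negative regulator of the response, fell (log2 fold change -0.44 ± 0.16), a call that was lost with DESeq2, with upper quartile scaling and with the GC and length offset. PRM1, whose product acts in membrane fusion, had 12.2, 20.6 and 13.2 CPM in snf2Δ and 3.72, 3.67 and 4.17 CPM in wild type (log2 fold change 1.98 ± 0.28, edgeR adjusted p = 5.5e-05). FUS1, needed for cell fusion, had 35.7, 51.4 and 40.8 CPM in snf2Δ and 7.23, 15.5 and 16.5 CPM in wild type (1.69 ± 0.25, edgeR adjusted p = 7.6e-05). In both, each snf2Δ library was above every wild-type library. KAR4, a regulator of karyogamy genes (0.80 ± 0.16), and AGA1, an agglutinin subunit (0.70 ± 0.16), rose as well. STE12 and FUS3, the kinase of the response, were not called, and FIG1 had too few counts. The rise of these genes and the values of the Ty3 genes were not tested against each other.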

How the data were processed

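Poly(A) RNA of 3 snf2Δ and 3 wild-type samples was sequenced in 75-base paired reads. Groups were taken from the labels. The labels name hot phenol extraction and the study's methods a column kit, so the extraction is unsettled. Per the submitters' processing notes, bcl2fastq 2.18, STAR 2.7.3a and RSEM 1.3.0 were used on sacCer3. The deposited values are raw counts, whole numbers per feature that the authors did not normalize. Whether strand was used and how reads with several matches were counted are not given in the sources used here. Of 7127 features, 6047 matched RefSeq R64, the source of positions and sequences.

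The counts were analysed in R 4.3.3 with edgeR 4.0.16 (filterByExpr, TMM scaling, quasi-likelihood F test on genotype, Benjamini-Hochberg adjustment over all features tested), checked on simulated counts. SNF2 was left out of counts of calls. Standard errors of fold changes were taken as log2 size over the square root of F. Levels are CPM with TMM scaling, and sums add members per library. Total counts per library were 4134546 to 6708036, and a count of 0 was taken to allow 3 counts. Named genes were the 12 Ty genes with the highest mean level, each Ty gene that passed, Ty3 and Ty4 genes, up to 4 called genes of each other list by adjusted p, and STE12, TEC1, GCN4, SPT3 and XRN1. Other genes named were picked with their values in view. The Ty genes and the lists were chosen with earlier results of these data known. Same-numbered replicates of the genotypes had deviations correlated at 0.155, -0.0403 and 0.126, so the numbers were not taken to pair the samples. Alternatives were other scalings, DESeq2 1.42.0, other filters, a replicate term, a GC and length offset, and leaving out each library.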

Additional observations from a re-analysis of the deposited data

How the results depend on the processing

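Of the 11 Ty genes that fell, all 11 kept the call with DESeq2 size factors, with upper quartile scaling, without a filter and with the GC and length offset, and 10 kept it with DESeq2. With only features of at least 10 CPM on average, 10 Ty genes were tested and 6 fell, all in Ty1, since 5 of the 11 were not tested. Leaving out 1 library at a time gave 9 to 11 called Ty genes, 1426 to 2493 genes over the whole table, and 163 to 176 that changed by over 2 on the log2 scale. The corresponding counts were 3 to 9 for the activators of Ty1, 3 to 8 for the SPT and HIR genes, 1 to 5 for RNA decay, 4 to 5 for the pheromone genes and 0 for the Gag-only genes, which gave no test. With at least 10 CPM, 3 pheromone genes were called.

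The same-numbered samples are not known to be pairs. With the replicate block 12 Ty genes and 2044 genes in all were called, and with the block and the GC and length offset 10 Ty genes, 2178 genes in all and 5 RNA decay genes. The log2 difference of the sums stayed between -0.90 and -0.76 for all members (-0.76 without YNL054W-B), between -1.47 and -1.32 for Ty1 and between -0.68 and -0.15 for Ty2 when libraries or the member with the most counts were left out. It ran from -0.11 to 0.13 for Ty3 (-0.11 without YIL082W-A, the most counted) and from -0.26 to 0.35 for Ty4, and from -1.22 to -0.79 for the log2 ratio of Ty1 to Ty2. The unique share of Ty3 had a median of 35.2% with 50-base and 69.0% with 150-base windows. No called Ty gene changed direction in any of these settings. The 20 Ty genes without a test had at most 12 counts in a library, and whether depth or shared sequence set this was not tested.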
